A study of Homo sapiens with 4 samples.

Results

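The vemurafenib-resistant strain of the melanoma line A375, called A375R, was compared with its untreated parental cells, called A375P. These are 2 of the 4 RNA libraries of the series, 1 per condition, and they were taken by their sample labels. A375R was raised in culture under rising concentrations of vemurafenib and was kept in the drug, and the concentration at harvest was not given in the sources used here. A375P had no treatment, and neither the labels nor the methods say that A375R is a single clone. The other libraries are A375 cells after 48 h with the solvent DMSO (A375+DMSO) or with 2 μM vemurafenib (A375+VEM), and they serve here only to place the values of the pair. All 4 libraries come from the same line, whose genotype the labels give as Wild Type, and all cells were grown in the same medium. The question of the comparison is which transcripts differ between cells that live in the drug and cells that never met it. With 1 library per side, the tissue culture, the passage and the drug cannot be told apart as sources of a difference, and no difference has a replicate check.

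Vemurafenib binds the BRAF kinase. In melanoma cells with an activating BRAF mutation, such as A375, that kinase drives the MEK and ERK cascade and with it the immediate early genes and the cell cycle. Cells that become resistant are known to take several routes, among them renewed ERK signaling, receptor tyrosine kinases such as AXL, NF-kB activity with inflammatory and survival genes, and a changed matrix and cytoskeleton. The vacuolar ATPase, to which a long run of genes in the table belongs, pumps protons into lysosomes and endosomes, where receptors are broken down.

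The table at hand runs in alphabetical order from names in A to names in CAC and covers 2864 genes with values. Its genes carry 8.48% of the TPM of A375P and 8.94% of that of A375R, where TPM is the number of reads per gene length, set to the same total in every whole library. Over these genes the deposited reads sum to about the same number in every library, between 1.89e+06 and 2.05e+06, and the full depth is unknown. A gene was compared when its TPM reached 1 in either library, and it was called higher or lower when the ratio of (TPM + 0.1) passed 1.5-fold. Log2 ratios are on that scale, on which low genes change by less than their TPM does, whereas folds are ratios of TPM with exact Clopper-Pearson 95% intervals on the reads. The intervals cover counting error only, since reads without molecular identifiers are not independent molecules. Levels of single genes are given as TPM in the order A375P, A375R, A375+DMSO and A375+VEM, and positions are as in the authors' table, on hg19 by the submitters' processing notes. A lower value can reflect fewer cells of a kind or less RNA per cell, which bulk libraries do not tell apart.

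The melanocyte markers of the table were checked first. ABCB5 and BIRC7 had a TPM under 1 in both libraries, while the other 7 of 9 markers were measured, 2 higher, 2 lower and 3 within 1.5-fold, and against A375+DMSO 2 were higher and 1 lower. Their median log2 ratio to A375P was 0.38, and they ran from APOD at -2.42 to BCL2A1 at 2.28. BCAN, a proteoglycan, stood at 34.1, 27.6, 15.4 and 16.9, and the acid ceramidase gene ASAH1 at 32.4, 15.9, 16.2 and 32.9. Of 13 markers of blood, liver and muscle cells, 5 reached a TPM of 1, 2 of them lower and none higher in A375R. ALB, which encodes serum albumin, was listed at 64.5, 51.5, 47.1 and 46.4, and the summed TPM of 9 liver transcripts, a list written after the values were seen, was 135, 107.95, 105 and 101. Transcripts of liver genes are therefore in all 4 libraries at similar levels, and their part in the results was not tested. The blood genes AHSP, ALAS2, AIF1, BANK1, BLK and BTK were at or near 0 in the pair.

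Of 1689 genes compared, 748 (44.3%) were past 1.5-fold, 452 (26.8%) higher in A375R and 296 (17.5%) lower, and the median log2 ratio was 0.099 with quartiles of -0.37 and 0.63. Most differences were moderate. 248 genes were above 2-fold and 127 below it, 74 and 23 were past 4-fold, and 21 and 4 were past 8-fold. All 5 genes past 16-fold were higher in A375R. The interval of the reads excluded 1 for 423 of the 452 higher genes and for 274 of the 296 lower ones. The share of higher genes fell with abundance, while that of lower genes followed no steady course. Among 347 genes with a highest TPM from 1 to 5, 35.4% were higher and 23.9% lower. From 5 to 20 TPM (485 genes) 32.4% were higher and 14.2% lower, and from 20 to 100 (644 genes) 21.7% and 13.4%. Among 213 genes at a TPM of 100 or more, 15.02% were higher and 27.2% lower, with a median log2 ratio of -0.15. The plot of level against ratio shows the genes by their mean TPM.

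**Figure D1:**
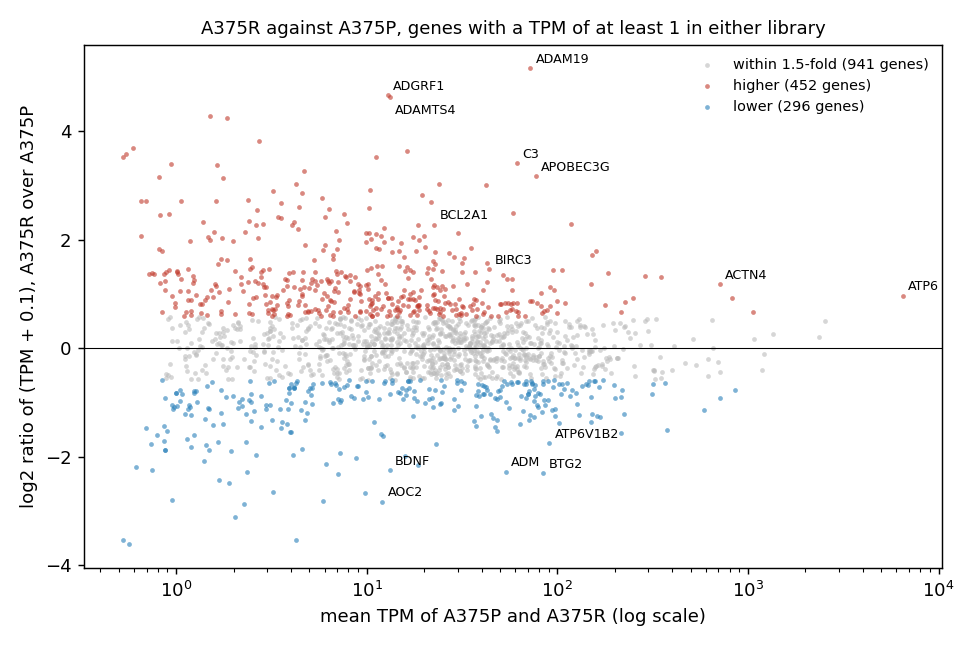
Each point is 1 of 1689 genes, with the mean TPM of A375P and A375R on a log x axis and the log2 ratio of (TPM + 0.1) on the y axis. Red points (452 genes) are higher and blue points (296 genes) lower in A375R by more than 1.5-fold, and ADAM19, ADGRF1 and ADAMTS4 lie above all other labelled genes.

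The parental library stood apart more than the resistant one. Among 1817 genes that reached a TPM of 1 in any library, A375P was past 1.5-fold of all 3 others for 436 genes (24.0%), A375+VEM for 589 (32.4%), A375R for 114 (6.27%) and A375+DMSO for 71 (3.91%). This count was made after the values were seen. Against A375+DMSO in place of A375P, 349 of 1702 genes (20.5%) were past 1.5-fold, 179 (10.5%) higher in A375R and 170 (9.99%) lower, with a median log2 ratio of 0.016. Both comparisons share the A375R library. For this reason counts and medians against A375+DMSO stand beside those of the groups, and single genes are given in all 4 libraries. The counts of each group are to be read beside the shares of all coding genes. These were 26.9% higher and 16.6% lower against A375P, and 10.2% and 9.14% against A375+DMSO. Among coding genes, 65 of 417 higher ones had a TPM under 1 in A375P and 37 of 258 lower ones had a TPM under 1 in A375R, so these were compared only through the library in which they were high.

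The 12 largest rises, among 1096 protein-coding genes that reached a TPM of 10 in either library, were led by proteins of the cell surface and the space around the cell. ADAM19 encodes a membrane metalloprotease that sheds growth factor precursors (chr5:156904312-157002831, minus strand). Its TPM was 3.82, 140.1, 25.8 and 14.2, so A375R held the highest level, and its log2 ratio to A375P was 5.16. ADGRF1, an adhesion G protein-coupled receptor (chr6:46965440-47010099, minus strand), stood at 0.883, 24.9, 2.88 and 0.0207 and had a log2 ratio of 4.67. ADAMTS4, a secreted protease that cuts aggrecan (chr1:161159519-161168843, minus strand), stood at 0.939, 25.5, 8.48 and 5.59, with a log2 ratio of 4.62. In these 3 genes A375R was past 1.5-fold of every other library.

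C3, the central protein of the complement cascade, rose from 458 to 4436 reads, which is 10.7-fold (95% interval 9.74 to 11.8), and stood at 10.4, 112, 39.04 and 236. Its highest level was in A375+VEM. APOBEC3G, a cytidine deaminase that restricts retroviruses, rose from 240 to 1966 reads, which is 9.07-fold (95% interval 7.93 to 10.4), and stood at 15.3, 138, 41.9 and 18.6. Its APOBEC3 neighbors are near-identical, so reads may be split among them. AMACR, a racemase of branched fatty acids, stood at 9.22, 75.3, 47.7 and 10.9, and its level in A375+DMSO lay between those of the pair. ATP6V0A4, a subunit of the proton pump that is otherwise known from kidney, stood at 2.36, 18.4, 1.42 and 2.74, a rise of 7.798-fold (95% interval 6.04 to 10.2).

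In several remaining members of this group another library lay above A375R. CACNB3, a calcium channel subunit, stood at 4.73, 34.1, 32.05 and 47.96, and the 3 other libraries all lay far above A375P. ALDOC, the brain form of the glycolytic enzyme aldolase, stood at 5.795, 37.9, 121 and 110.1, so A375R lay above A375P and below A375+DMSO, where the log2 ratio was -1.67. AGMO, which cleaves ether lipids, showed the same order at 2.36, 30.3, 53.9 and 26.2. AKR1C3, a reductase of steroids and prostaglandins with near-identical sister genes, stood at 1.41, 10.2, 8.08 and 25.4, and A4GALT, which makes the glycolipid Gb3 and was highest in A375R, at 1.69, 20.7, 12.1 and 0.8303. BRINP2, a neuronal gene with 3 reads in A375P and 102 in A375R, was the only protein-coding gene that went from 3 or fewer reads to 50 or more, and the opposite change was met by none. Its fold was 37.6 with an interval from 12.5 to 186, and it had a TPM of 3.59 in A375R.

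The largest falls held growth arrest and stress genes, hormones and a neurotrophin. BTG2, an antiproliferative gene induced by p53 and by growth factors, fell from 3249 to 592 reads and stood at 139.8, 28.2, 20.6 and 29.6. All 3 other libraries lay far below A375P, and against A375+DMSO the log2 ratio was 0.45. ADM, the vasodilator adrenomedullin, stood at 88.7, 18.2, 21.7 and 5.07, and BHLHE41, a circadian repressor, at 14.2, 3.42, 3.71 and 1.899. BDNF, the ligand of the TrkB receptor, stood at 21.8, 4.51, 2.59 and 2.12, with a ratio of 0.207 to A375P (95% interval 0.181 to 0.236). AMH, the anti-Müllerian hormone of the TGF-beta family, stood at 25.3, 6.27, 8.23 and 9.58.

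CABLES1, which links cyclin-dependent kinases to ABL, stood at 30.4, 6.73, 7.57 and 30.4, so that the A375+VEM and A375P libraries held the same level and the A375R and A375+DMSO libraries the lower one. AOC2, an amine oxidase, stood at 21.2, 2.89, 1.68 and 4.75 and ALOXE3, an epidermal lipoxygenase, at 11.8, 2.28, 0.724 and 0.328. In both, A375R lay below A375P and above A375+DMSO. AMMECR1 stood at 35.8, 10.4, 8.11 and 11.6. C3orf62 stood at 10.01, 2.19, 3.45 and 6.45, the lowest of the 4 libraries being A375R, and C11orf94 rests on 33 and 4 reads. ATP6V1B2, a subunit of the proton pump, stood at 140.1, 41.7, 42.4 and 52.7 and brings in the largest coherent group among the falls.

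**Figure D2:**
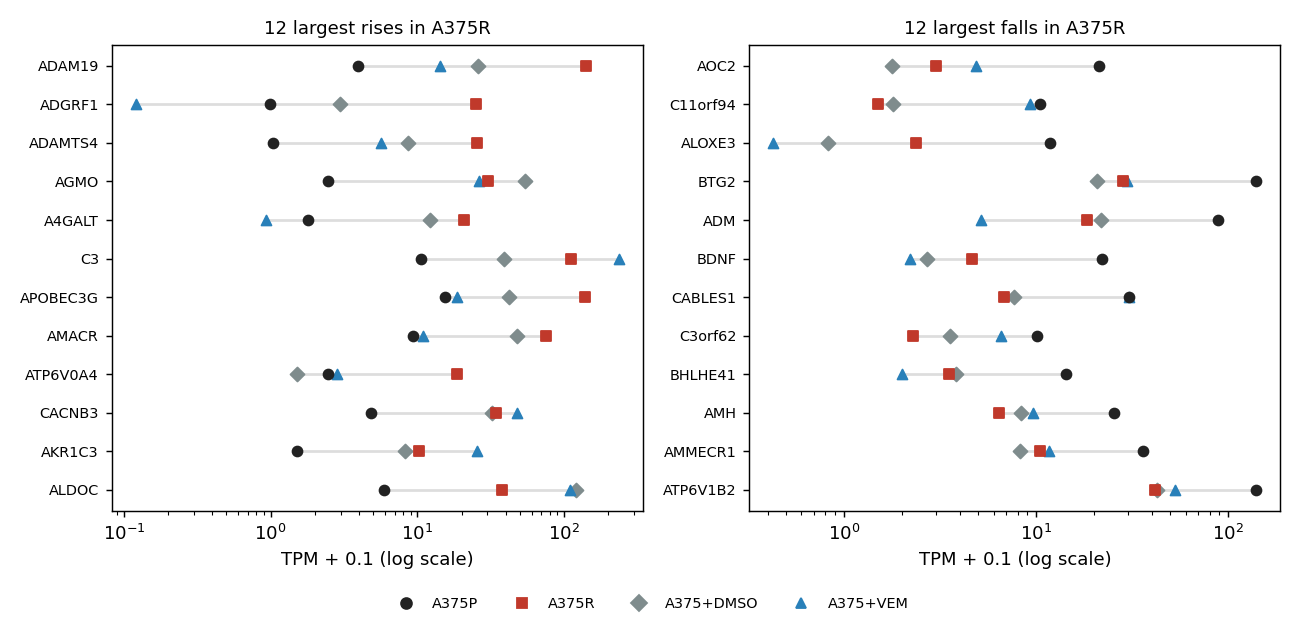
TPM + 0.1 on a log x axis for the 12 largest rises (left) and the 12 largest falls (right) among protein-coding genes, in A375P (black circles), A375R (red squares), A375+DMSO (gray diamonds) and A375+VEM (blue triangles), with 1 library each. In ADAM19, ADGRF1, ADAMTS4, A4GALT, APOBEC3G, AMACR and ATP6V0A4 the red square is the rightmost point, and among the falls A375P is the highest library except for CABLES1, where A375+VEM is at the same level.

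Genes of the vacuolar ATPase were mostly lower. Of 23 protein-coding genes compared, 15 were lower and 1 was higher, with a median log2 ratio of -0.81, where 43.5% of the 1553 coding genes compared were past 1.5-fold, 16.6% lower and 26.9% higher, and the median was 0.11. Their TPM, in the order given above, summed to 2280.2, 1240.3, 1292 and 2051. A375R and A375+DMSO thus shared the lower total. Against A375+DMSO, 1 gene was lower and 1 higher, with a median of 0.0086, where 19.3% of coding genes were past 1.5-fold, 9.14% lower and 10.2% higher, so the fall is relative to A375P.

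The members fell in both parts of the pump. Of the V1 part, which splits ATP in the cytosol, ATP6V1E1 stood at 235, 97.7, 89.7 and 141, ATP6V1D at 91.1, 40.6, 31.6 and 57.2 and ATP6V1G1 at 99.1, 53.9, 53.6 and 79.7. The catalytic subunit ATP6V1A was within 1.5-fold at 67.98, 58.8, 54.9 and 83.02. Of the V0 part, which carries protons through the membrane, ATP6V0C, the ring subunit, stood at 402, 225, 244 and 309, ATP6V0E1 at 216, 84.5, 76.99 and 208, ATP6V0B at 183, 77.5, 74.1 and 123 and ATP6V0D1 at 128, 58.2, 63.05 and 153. In each of these 4 the A375+VEM library lay above A375R. Of the a subunits, which direct the pump to a membrane, ATP6V0A1 stood at 56.3, 23.6, 28.5 and 32.6 and ATP6V0A2 at 24.2, 12.3, 8.35 and 9.84, while ATP6V0A4 went up. Its fold against A375+DMSO was 13.0. Of 45 Arf and Arl genes and regulators as a whole, 9 were higher and 7 lower, where 26.9% and 16.6% of all coding genes were. Their median was -0.031. Against A375+DMSO 3 of 44 were higher and 3 lower, where 10.2% and 9.14% of all coding genes were.

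Lysosome genes are known to carry the hexamer CACGTG, which MiT/TFE factors bind and which other basic helix-loop-helix factors bind too, so the upstream sequences of the pump genes are shown. RefSeq upstream windows of 250 bases before a listed start (GRCh38.p14) were matched by gene ID for 1226 of 1511 coding genes searched, and both strands were searched. The hexamer, which reads alike on both strands, was in 45 of 206 lower genes (21.8%) and in 87 of 698 genes within 1.5-fold (12.5%). It was in 7.73% of all genes with a RefSeq window, where a match in any window of a gene counted. Where a TPM of 20 was reached it was in 27 of 114 lower genes (23.7%) and in 56 of 431 within 1.5-fold (12.99%). Of 16 pump genes with a window, 4 held it. The search was chosen after the values were seen and was not tested, a match is not a bound site, and for the higher genes, where the hexamer was in 21 of 322 (6.52%), the check is void because 78.7% of them had a window, under the minimum of 80%. Other motifs were searched over the same sets. TGACTCA, which AP-1 binds, was in 8 lower genes (3.88%) and 28 within 1.5-fold (4.01%). GGAATG, which TEAD factors bind, was in 26 (12.6%) and 94 (13.5%), and the interferon response element core, GAAA, any pair of bases and GAAA again, was in 9 (4.37%) and 16 (2.29%). These motifs were in 5.19%, 14.3% and 3.71% of all genes with a RefSeq window. Shown are the 150 bases before the start of 3 pump genes that hold CACGTG there, 5′ to 3′ on the gene's strand, with the hexamer in capitals.
ATP6V0B, chr1:43974810-43974959, plus strand: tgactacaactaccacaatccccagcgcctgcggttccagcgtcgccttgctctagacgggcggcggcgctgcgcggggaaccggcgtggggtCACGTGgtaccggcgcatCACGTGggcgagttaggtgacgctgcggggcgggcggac
ATP6V0D1, chr16:67481158-67481307, minus strand: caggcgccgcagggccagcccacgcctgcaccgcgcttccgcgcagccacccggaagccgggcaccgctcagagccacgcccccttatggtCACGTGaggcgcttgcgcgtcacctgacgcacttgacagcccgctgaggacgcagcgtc
ATP6V1G1, chr9:114587619-114587768, plus strand: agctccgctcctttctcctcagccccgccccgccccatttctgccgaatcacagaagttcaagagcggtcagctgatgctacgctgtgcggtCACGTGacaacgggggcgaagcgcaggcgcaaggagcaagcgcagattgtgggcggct
In these windows the first match lies 57, 59 and 58 bases before the start, and ATP6V0B holds 2 matches.

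Interferon-linked genes moved the other way. Of 17 compared, 13 were higher and none was lower, with a median log2 ratio of 1.63, the highest of the 34 lists. Against A375+DMSO, 8 were higher and 1 lower, with a median of 0.50. Of all coding genes, 26.9% were higher and 16.6% lower than in A375P, and 10.2% and 9.14% than in A375+DMSO. The APOBEC3 deaminases compared, which lie side by side on chromosome 22, were all higher. APOBEC3C stood at 56.4, 154, 77.8 and 77.5, APOBEC3B at 15.2, 54.9, 31.9 and 2.54, APOBEC3D at 6.67, 28.1, 13.6 and 9.81 and APOBEC3F at 5.05, 18.2, 9.84 and 7.96. A375R held the highest level of each. The butyrophilins BTN3A1, BTN3A2 and BTN3A3 are a family linked to the response of gamma delta T cells to phosphoantigens and are also near-identical. Their log2 ratios were 1.91, 2.12 and 2.61 against A375P and 0.32, 0.17 and -0.22 against A375+DMSO.

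APOL3 stood at 0.7401, 3.21, 1.13 and 2.06 and APOL6 at 7.56, 15.4, 10.2 and 8.84, both genes of the apolipoprotein L family. AIM2, a sensor of cytosolic DNA that starts the inflammasome, stood at 2.52, 8.01, 5.65 and 25.3. B2M, the light chain of class I MHC, was within 1.5-fold at 1008, 1139.9, 1075 and 1704, as were ADAR at 97.3, 132, 136 and 156 and BATF2 at 13.9, 11.02, 7.15 and 7.09. BST2, or tetherin, which holds budding virus at the membrane, stood at 1.603, 4.56, 17.4 and 16.2, so A375R was above A375P and far below A375+DMSO, with log2 ratios of 1.45 and -1.91. Its upstream sequence is shown because it holds 2 overlapping copies of the interferon response element core. The interferon-linked list had a window for 41.2% of its genes, so a check over the list is void.
BST2, chr19:17405631-17405780, minus strand: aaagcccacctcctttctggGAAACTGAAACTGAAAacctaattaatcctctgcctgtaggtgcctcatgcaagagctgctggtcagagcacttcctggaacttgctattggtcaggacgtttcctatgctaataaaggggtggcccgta
The capitals mark both copies, and the first lies 130 bases before the start.

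More NF-kB-linked genes were higher than lower in A375R, counted from either drug-free library. Of 9 compared, 5 were higher than in A375P and 1 was lower, with a median of 0.81. Against A375+DMSO, 7 were higher and none lower, with a median of 0.73. Of all coding genes, 26.9% were higher and 16.6% lower than in A375P, and 10.2% and 9.14% than in A375+DMSO. BCL2A1, a pro-survival BCL2 relative that both NF-kB and the melanocyte factor MITF switch on, stood at 7.67, 37.5, 4.24 and 8.15, which is 4.89-fold (95% interval 3.702 to 6.55) against A375P. BIRC3, an inhibitor of apoptosis and a ubiquitin ligase of the TNF receptor complex, stood at 23.4, 64.4, 9.08 and 6.997. BCL3, a nuclear partner of NF-kB, stood at 36.1, 63.3, 50.6 and 50.9. BIRC2 was within 1.5-fold of A375P at 92.2, 75.7, 45.6 and 32.7, and ADORA2A, an adenosine receptor, was lower at 3.28, 1.35, 0.846 and 4.09. In BCL2A1 and BIRC3 the A375R library stood past 1.5-fold of all 3 others. BCL2A1 is at chr15:80253232-80263643, minus strand, and BIRC3 at chr11:102188181-102210134, plus strand.

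**Figure D3:**
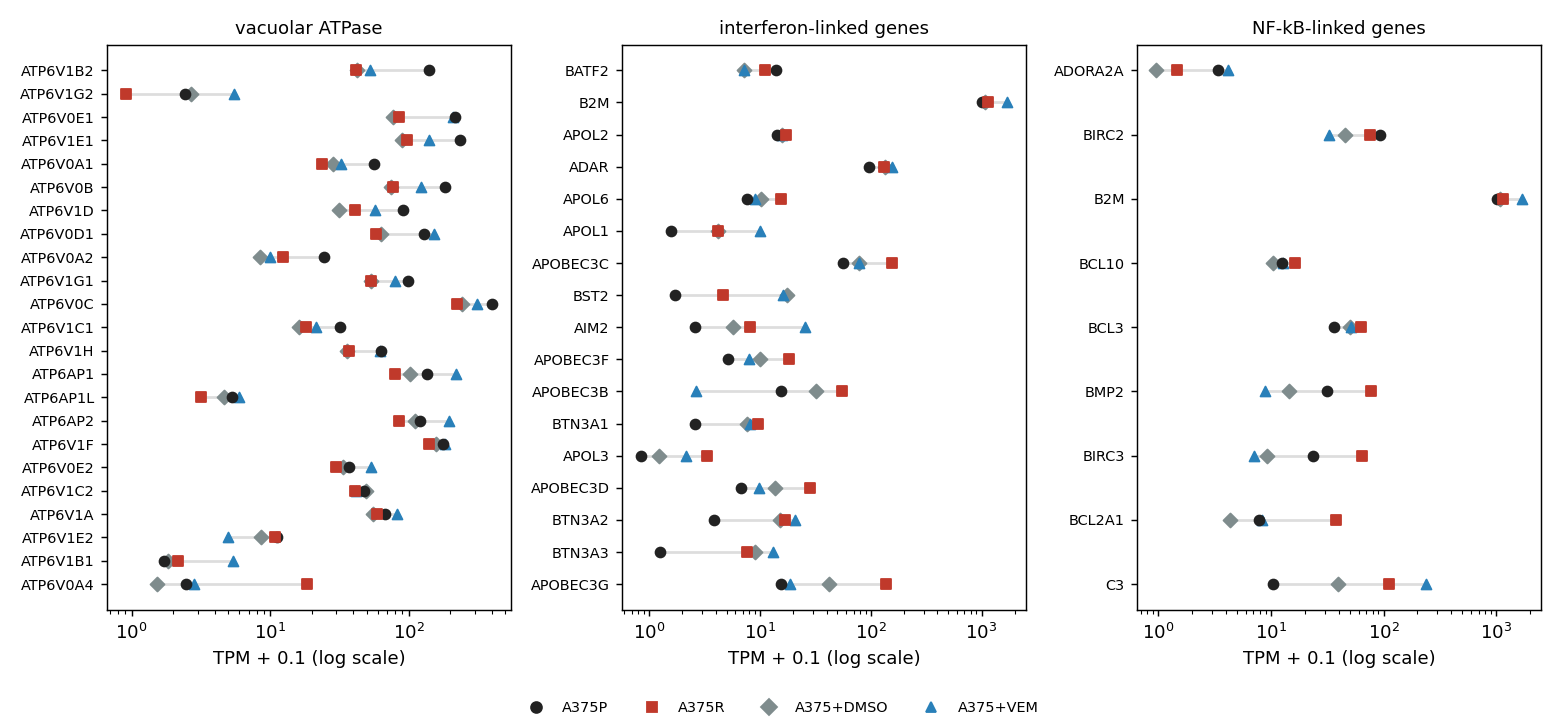
TPM + 0.1 on a log x axis for the protein-coding members compared of the vacuolar ATPase (23 genes), interferon-linked (17 genes) and NF-kB-linked (9 genes) lists, ordered by their log2 ratio, in A375P (black circles), A375R (red squares), A375+DMSO (gray diamonds) and A375+VEM (blue triangles). In the left panel red squares and gray diamonds mostly lie together to the left of the black circles, while BCL2A1 and BIRC3 in the right panel have the red square to the right of all others.

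Other genes in which A375R stood past 1.5-fold of all 3 other libraries were chosen after their values were seen. AREG, a ligand of the EGF receptor, stood at 7.41, 24.1, 8.33 and 0.0987, and BMP2, a TGF-beta family ligand, at 31.6, 76.9, 14.3 and 8.71. AKAP12, a scaffold for protein kinases A and C, stood at 70.5, 233, 91.6 and 86.5, and ARNTL2, a circadian transcription factor, at 11.8, 32.7, 8.58 and 8.41. C15orf48, a gene of chromosome 15 known from inflamed cells, stood at 3.06, 10.3, 1.57 and 2.51. On the low side were APOD, a lipocalin, at 2.89, 0.457, 1.77 and 11.8, ARRDC4, an arrestin relative that responds to glucose, at 6.7996, 2.67, 14.2 and 32.1, and ACSS1, a mitochondrial acetyl-CoA synthetase, at 12.6, 6.52, 11.1 and 21.3. CA9, the carbonic anhydrase known from hypoxic tumors, had 1 and 0 reads in A375P and A375R against 289 with DMSO and 95 with 48 h of vemurafenib, so both libraries of the pair were at or under 3 reads and no fold is given.

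Of 21 secreted growth factors and hormones, 7 were higher and 6 lower, where 26.9% and 16.6% of all coding genes were. The median was 0.22. BMP6 at 3.82, 8.88, 5.52 and 4.56 and the angiopoietin-like gene ANGPTL2 at 9.02, 24.6, 13.5 and 16.5 were higher together with AREG and BMP2. ARTN, a ligand of the GDNF family, was lower at 7.203, 1.93, 1.22 and 5.57, as was APLN, the ligand of the apelin receptor, at 2.39, 1.24, 1.24 and 0.234. Against A375+DMSO, 8 of 22 were higher and 1 lower, where 10.2% and 9.14% of all coding genes were. BTC, another EGF receptor ligand, was within 1.5-fold of A375P at 1.86, 2.02, 0.666 and 4.56 and higher than A375+DMSO by 1.47 on the log2 scale.

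The kinases that feed growth signaling were mostly within 1.5-fold, 7 of 11, with 1 higher and 3 lower, and against A375+DMSO 2 were higher and 2 lower. BRAF itself stood at 28.2, 30.2, 20.3 and 19.7 and ARAF at 44.4, 52.3, 54.9 and 54.9. AXL, the receptor kinase, stood at 659, 575, 358 and 92.4, which puts A375R between A375P and A375+DMSO and far above A375+VEM. ABL2 was lower at 226, 94.99, 46.5 and 31.04 and AKT1S1, the PRAS40 inhibitor of mTORC1, at 169, 83.1, 81.3 and 120.4. Of 6 immediate early and ERK-linked genes, 1 was higher and 3 were lower than in A375P, with a median of -0.34, whereas 4 were higher and none lower than in A375+DMSO, with a median of 0.94. BHLHE40 at 89.8, 51.9, 21.9 and 22.9 and ARC at 15.8, 6.09, 2.59 and 0.812 both had this order, with A375P at the top and A375R above A375+DMSO. ATF3 stood at 63.04, 68.2, 42.5 and 47.6. The gene of this group higher than in A375P was AREG, which is also in the lists of growth factors and of YAP and TAZ. Of 9 genes linked to YAP and TAZ, 2 were higher and 1 lower than in either drug-free library, with medians of -0.019 and 0.079. Of all coding genes, 26.9% were higher and 16.6% lower than in A375P, and 10.2% and 9.14% than in A375+DMSO. AJUBA, a LIM protein that restrains LATS kinases, was lower than in A375P at 101, 66.3, 64.3 and 16.4.

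Cell division genes were higher in 10 of 17 and lower in none, where 26.9% and 16.6% of all coding genes were. The median was 0.68. Against A375+DMSO, none of 18 was higher and 1 was lower, with a median of -0.030, and most levels of A375+VEM were lower still. ANLN, an actin-binding protein of the cleavage furrow, stood at 51.98, 95.6, 78.4 and 6.97, ANP32E, a histone chaperone, at 36.8, 78.1, 71.2 and 17.9, BORA, an activator of Aurora A, at 8.34, 17.01, 15.2 and 6.32, and ATAD5, which unloads the replication clamp, at 4.59, 9.52, 9.01 and 2.62. BIRC5, which encodes survivin, was within 1.5-fold at 54.1, 47.9, 64.7 and 0.8395. Of 20 DNA damage genes, 7 were higher and 2 lower, where 26.9% and 16.6% of all coding genes were, with a median of 0.27. Against A375+DMSO 2 were higher and none lower, with a median of 0.087. The homologous recombination genes BARD1 at 2.97, 7.32, 4.86 and 0.4803, BRIP1 at 2.66, 6.45, 5.31 and 0.694, BRCA2 at 2.57, 5.77, 3.8001 and 0.177 and BLM at 5.85, 10.2, 7.04 and 0.261 were higher, and A375+VEM held the lowest level of each, while the alkylation repair genes ALKBH2 and ALKBH3 were lower, at -0.61 and -0.70 on the log2 scale. None of 10 subunits of the anaphase-promoting complex was higher and 3 were lower, ANAPC7 at -0.85, ANAPC16 at -0.68 and ANAPC11 at -0.65, while against A375+DMSO 1 was higher and none lower.

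Genes of apoptosis went both ways. Of 15 death effectors and BH3-only genes, 4 were higher and 3 lower, near the 26.9% and 16.6% of all coding genes. Against A375+DMSO 1 was higher and none lower. The ones lower than in A375P were the pore formers BAX at 282, 152, 139 and 209.7 and BAK1 at 63.3, 33.04, 28.7 and 24.6 and the p53 target BBC3 at 64.998, 34.9, 31.8 and 29.1, and in each of these A375P held the highest level. BIK was higher at 4.29, 9.35, 3.67 and 1.19, as were BMF at 1.76, 3.49, 3.77 and 128 and BAD at 46.6, 74.7, 77.5 and 115. BCL2L11, or BIM, a BH3-only gene that ERK signaling holds down, was within 1.5-fold at 3.66, 3.08, 4.31 and 13.6. Among pro-survival genes, BCL2 was lower at 8.88, 4.35, 3.57 and 0.514 and BCL2A1 higher, while BCL2L1 was within 1.5-fold at 151, 144, 105 and 42.1.

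**Figure D4:**
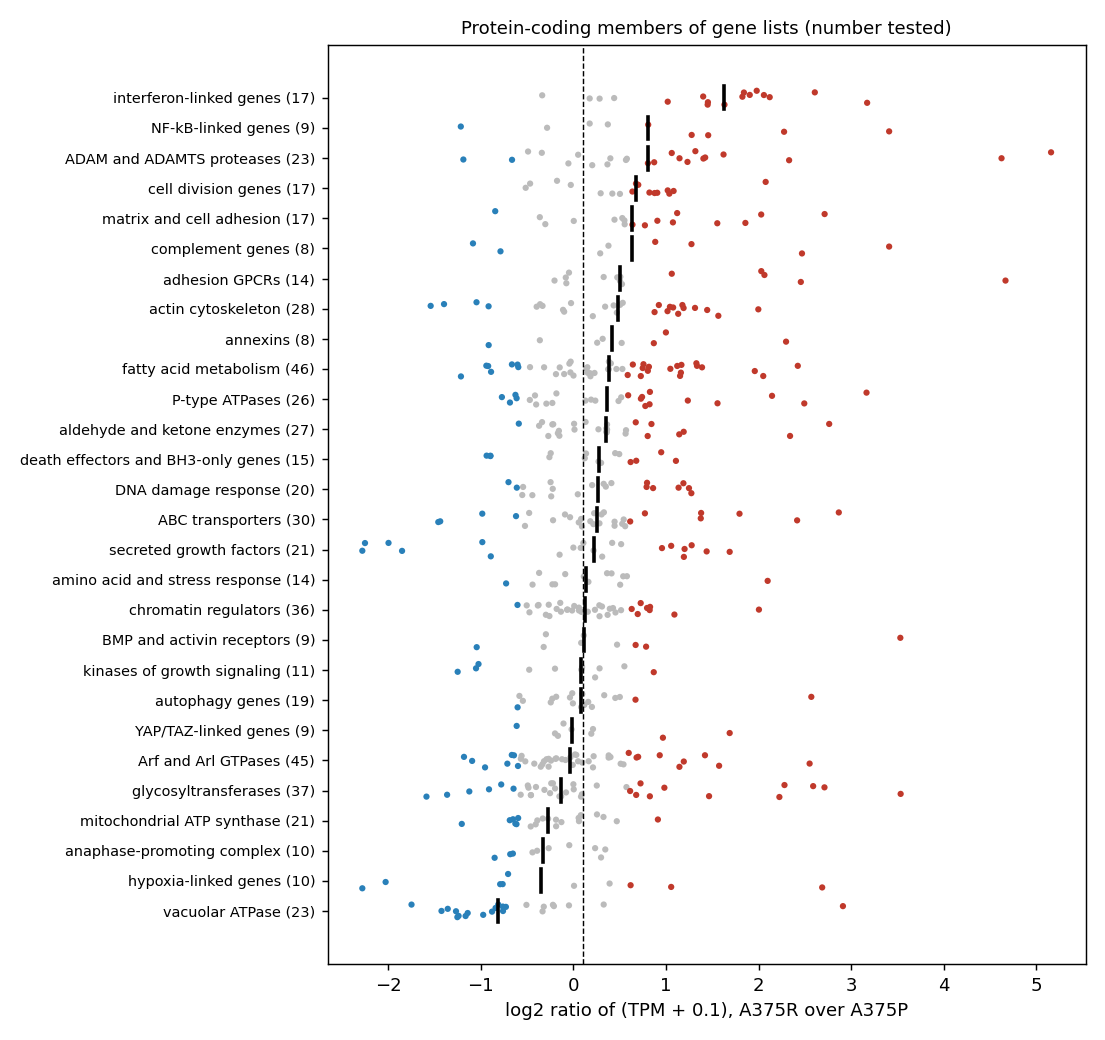
Each point is a protein-coding gene compared, with its log2 ratio of (TPM + 0.1) on the x axis and 1 row for each list shown, all with at least 8 genes compared, sorted by the list's median (thick black bar). Red points are higher and blue points lower by more than 1.5-fold, points are spread vertically for legibility, and the dashed line is the median of all 1553 coding genes (0.11). Interferon-linked genes (median 1.63) head the plot and the vacuolar ATPase (median -0.81) closes it.

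Enzymes of fatty acid metabolism were higher in 18 of 46 and lower in 7, where 26.9% and 16.6% of all coding genes were. The median was 0.38. Against A375+DMSO, 5 were higher and 3 lower, with a median of -0.11. Steps of mitochondrial fat oxidation were among the higher ones, with ACADVL at 163, 410.0, 443 and 747 and ACAD9 at 17.5, 38.97, 45.4 and 38.04, and so were steps that make acetyl-CoA and malonyl-CoA, with ACLY at 129.6, 226, 219 and 206, ACSS2 at 13.8, 31.1, 29.6 and 29.6 and ACACB at 1.01, 5.85, 6.34 and 10.5. ACOT7, a thioesterase, stood at 102, 268, 142 and 65.8 and was also higher than in A375+DMSO. AGPAT5, which acylates lysophosphatidic acid, was lower at 62.9, 27.1, 17.9 and 15.2. Of 27 aldehyde and ketone enzymes, 7 were higher and 1 lower, whereas against A375+DMSO 4 of 29 were higher and 6 lower, with a median of -0.24. ALDH1A3, which makes retinoic acid and ranked among the 10 most abundant genes of the table, stood at 815, 1299.7, 689 and 99.1, and the aldose reductase AKR1B1 at 91.01, 208, 149 and 141.

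Of 37 glycosyltransferases, 11 were higher and 6 lower with a median of -0.13, near the 26.9% and 16.6% of all coding genes, and against A375+DMSO 5 of 36 were higher and 4 lower. Of the higher ones, B4GALNT1, which makes GM2 and GD2 and marks melanoma, stood at 4.296, 20.5, 24.7 and 26.4, and B3GALT4, which makes GM1, at 0.208, 1.92, 4.15 and 15.8. Of the 6 lower ones, ALG14, ALG8, ALG2 and ALG3 build the N-glycan precursor, and ALG14 stood at 17.9, 5.904, 6.97 and 12.8. These examples were chosen after the values were seen. Of 14 amino acid and stress response genes, 1 was higher and 1 lower, and against A375+DMSO 2 were higher and none lower. The one higher than in A375P was ASS1, which makes argininosuccinate and whose absence makes melanomas depend on arginine, at 4.17, 18.2, 23.2 and 9.74, with A375P as the lowest library. ATF4 stood at 819, 603, 628 and 322 and ASNS, asparagine synthetase, at 269, 391, 431 and 22.8, both within 1.5-fold. Of 10 hypoxia-linked genes, 3 were higher and 5 lower, from ALDOC at 2.69 to ADM at -2.28, and against A375+DMSO 1 of 11 was higher and 3 lower.

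Of 21 subunits of the mitochondrial ATP synthase that the nucleus encodes, 14 were within 1.5-fold, 6 lower and 1 higher. Of all coding genes, 16.6% were lower and 26.9% higher. The median of the subunits was -0.27. None of them was past 1.5-fold against A375+DMSO, where 19.3% of coding genes were. ATP5G1, the ring subunit, stood at 211, 91.4, 101 and 88.8. The mitochondrially encoded ATP6 and ATP8, which overlap each other, were higher in A375R at 4397, 8603, 9787 and 11213 and 568, 1082, 1324 and 1577. A375P was the lowest library for both, and against A375+DMSO their log2 ratios were -0.19 and -0.29. The total share of mitochondrial reads was not analysed here. Of other genes of the highest level, ACTG1, ACTB, ANXA2, BTF3, ATP5B and B2M were within 1.5-fold.

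Matrix and adhesion genes were higher in 9 of 17 and lower in 1, where 26.9% and 16.6% of all coding genes were. The median was 0.64. Against A375+DMSO they were higher in 4 of 19 and lower in 6, with a median of -0.059. ACAN, the cartilage proteoglycan aggrecan, stood at 0.356, 2.89, 4.37 and 12.7, BGN, biglycan, at 21.1, 39.7, 74.3 and 45.1 and BCAM, a laminin receptor, at 11.5, 33.96, 54.96 and 67.6. AMIGO2, an adhesion molecule of the leucine-rich repeat family, was within 1.5-fold of A375P at 74.95, 102, 52.7 and 10.4. The 23 proteases of the ADAM and ADAMTS families held 12 higher and 2 lower genes, with a median of 0.81, but 5 of the 12 had a TPM under 1 in A375P, and without the filter on TPM the median was 0.20. Against A375+DMSO, 4 were higher and 3 lower, with a median of 0.061. ADAMTS12 stood at 13.4, 36.1, 20.8 and 5.86, ADAMTS6 at 2.34, 5.31, 2.19 and 2.13 while ADAM10, the main sheddase of Notch, was within 1.5-fold at 43.7, 65.3, 62.6 and 121. Of 14 adhesion G protein-coupled receptors, 5 were higher and none lower, while against A375+DMSO 3 of 15 were higher and 3 lower. Higher than in A375P were ADGRB2 at 5.298, 21.9, 26.6 and 22.6 and ADGRE1 at 4.496, 19.1, 13.1 and 16.9. Complement genes held 4 higher and 2 lower of 8, with a median of 0.63 that was 0.0503 without the filter, and against A375+DMSO 1 of 7 was higher and 2 lower. They include C1R, the protease of the first complex, at 2.27, 12.997, 17.5 and 53.9 besides C3.

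The actin cytoskeleton list held 12 higher and 4 lower genes of 28, where 26.9% and 16.6% of all coding genes were. Its median was 0.49. Against A375+DMSO, 1 was higher and 1 lower, with a median of 0.10, so these counts are relative to A375P. Crosslinkers and branching factors were among the higher ones, with ACTN4 at 437, 988, 923 and 679, ACTN1 at 172, 326, 234 and 73.3 and ARPC1B, a subunit of the Arp2/3 complex, at 201, 501, 394 and 848. ACTA2, smooth muscle actin, was lower at 92.2, 34.97, 28.3 and 40.1, though reads of actin genes may be shared with near-identical copies. The annexins held 3 higher and 1 lower of 8, and none higher and 1 lower against A375+DMSO, with ANXA6 at 39.7, 196, 157 and 101 and ANXA5, the phosphatidylserine binder, at 932, 495, 415 and 473.

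Transporters of the ABC family were higher in 7 of 30 and lower in 4, where 26.9% and 16.6% of all coding genes were, and against A375+DMSO 2 of 29 were higher and 1 lower. Among those known for drug efflux, ABCB1 stood at 5.05, 7.78, 5.67 and 4.38 and ABCG2 at 1.03, 1.55, 1.26 and 0.159. ABCC3 stood at 11.5, 30.1, 19.1 and 3.87 and was past 1.5-fold above A375P. ABCB1 passed with a log2 ratio of 0.61 and did not with a pseudocount of 1 (0.54) or after scaling to a median ratio of 1 (0.52). ABCB4, a phospholipid floppase, stood at 1.02, 8.097, 10.5 and 34.4, while ABCB9, a lysosomal peptide transporter, was lower at 68.98, 25.05, 21.5 and 59.6. P-type ATPases held 11 higher and 4 lower of 26, and 2 higher and 2 lower of 28 against A375+DMSO, and 4 of the 11 had a TPM under 1 in A375P. They include the plasma membrane calcium pump ATP2B4 at 17.5, 99.2, 56.8 and 133. Chromatin regulators were within 1.5-fold in 27 of 36, with 8 higher and 1 lower, and against A375+DMSO 2 were higher and none lower. ATF7IP, a partner of the H3K9 methyltransferase SETDB1, stood at 7.402, 29.995, 28.2 and 26.3, and ARID1A, ARID2 and BAP1 were within 1.5-fold. Autophagy genes were within 1.5-fold in 16 of 19, and in all but 1 against A375+DMSO, with BECN1 at 98.7, 106, 105 and 131 and ATG16L2 higher at 1.75, 10.9, 11.2 and 15.96.

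Of 58 long noncoding RNAs compared, 32 (55.2%) were past 1.5-fold, 17 (29.3%) higher and 15 (25.9%) lower. Among all genes compared these shares were 44.3%, 26.8% and 17.5%. Against A375+DMSO, 22 (37.9%) were past 1.5-fold, 6 (10.3%) higher and 16 (27.6%) lower, where the shares of all genes were 20.5%, 10.5% and 9.99%. The largest rise was C1QTNF3-AMACR, a readthrough transcript (chr5:33987091-34124633, minus strand), at 5.14, 42.5, 29.05 and 6.76. It shares sequence and strand with AMACR, which moved by a like amount, so these transcripts cannot be told apart. ANO1-AS2 stood at 5.51, 15.6, 6.07 and 6.58 and BLACAT1 at 10.3, 19.8, 15.5 and 5.82. Falls were led by BCYRN1 at 16.9, 2.58, 17.5 and 5.67, which rests on 29 and 4 reads in the pair (95% interval of the ratio 0.039 to 0.435). AATBC stood at 3.299, 0.506, 0.6799 and 1.12. ACTA2-AS1 followed at 4.23, 1.01, 1.78 and 2.28, next to ACTA2 which was lower too. ADORA2A-AS1 stood at 1.07, 0.321, 0.124 and 1.53, next to ADORA2A. The strand of counting was not given in the sources used here. Reads of these antisense genes may therefore come from their sense genes where they overlap. ARHGAP31-AS1 rests on 22 and 7 reads.

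By position, the median log2 ratio of the 20 chromosomes with at least 40 genes compared ran from -0.057 on chromosome 16 (67 genes) to 0.38 on chromosome 5 (67 genes, 22 higher and 8 lower). Chromosome 7 followed with 0.29 over 78 genes and chromosome 9 with 0.28 over 77 genes. Against A375+DMSO the medians of these 3 were 0.17, 0.054 and -0.0025. Copy number was not measured in these data, and its part in these medians was not tested.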

How the data were processed

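The series holds RNA libraries of 4 cultures of A375 cells, 1 for each condition, and the sample labels set the conditions. The authors deposited 1 table, which gives gene type, length, position, a read count and a TPM. The deposited counts are whole numbers that were not normalized. The TPM was scaled by the authors over the whole library and by gene length, since TPM times length over count was 1 constant per library. The submitters' processing notes name HISAT2, HISAT, TopHat2, Bowtie2 and the build hg19. The counting program and its use of strand were not given in the sources used here. The table is in alphabetical order and ends at names in CAC, with 2864 genes and 1 incomplete row that was left out, so the depth of the libraries is unknown beyond the reads of these genes.

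The ratio of (TPM + 0.1) was computed for genes whose TPM reached 1 in either library, with 1.5-fold as the threshold, and no test was run. Exact Clopper-Pearson 95% intervals on the reads, scaled by the libraries' TPM constants, cover counting error only. The members and the 34 gene lists were chosen with earlier results of these data known, and lists were limited to protein-coding genes. Lists share genes, so their counts are not separate. AREG, for example, is in the growth factor, immediate early and YAP and TAZ lists, and C3 in the NF-kB and complement lists. The genes named were the 12 largest rises and 12 largest falls among protein-coding genes at a TPM of 10 or more, the 5 lncRNAs in each direction with at least 20 reads, protein-coding genes with 3 or fewer reads against 50 or more, the 10 most abundant genes, and members of the lists. Others are marked where named. The liver transcripts, the hexamer search and the counts of libraries that stand apart were chosen after the values were seen. Upstream sequences are from RefSeq (GRCh38.p14), with genes of 1 chromosome not searched. Some genes and 1 list that the rule takes in are not reported here. The ratio step was tested on simulated data. Alternatives were pseudocounts of 1 and 0.01, a TPM of at least 5, no filter, a 2-fold threshold, an interval that excludes 1, scaling to a median ratio of 1, and A375+DMSO as the control. The work was done with pandas 2.3.3, matplotlib 3.10.9, scipy 1.17.1 and numpy 2.4.6 in Python 3.11.15.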

Additional observations from a re-analysis of the deposited data

How the results depend on the processing

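With 1 library per condition no p-value stands behind any count, no library could be left out, and depth limits single genes with few reads. No paired analysis was possible because each condition has 1 library. Of the genes compared, 44.3% were past 1.5-fold (748 genes), and the share was 38.7% with a pseudocount of 1, 45.0% with 0.01, 40.4% at a TPM of at least 5, 43.2% after scaling to a median ratio of 1 and 41.3% when the interval of the reads had to exclude 1. Without a filter on low values, which admits every gene, 43.2% passed, which is 1237 genes, 702 higher and 535 lower. At a threshold of 2-fold, which is stricter by construction, 22.2% passed, 248 genes higher and 127 lower. With A375+DMSO as the control 20.5% passed, which is 349 genes, 179 higher and 170 lower, and the cause was not tested. Scaling to a median ratio of 1 moved the share of higher genes among those past 1.5-fold from 60.4% to 53.0%.

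Of the 34 lists, 7 had a median past 1.5-fold. There were 4 such lists with a pseudocount of 1, 4 without the filter, 4 after scaling and 2 with A375+DMSO as the control. Against A375+DMSO the medians of 4 of these lists had the opposite sign, at -0.059 for matrix and cell adhesion, -0.030 for cell division, -0.21 for complement and 0.0086 for the vacuolar ATPase.

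Of 173 genes named, 135 were past 1.5-fold against A375P, and 53 of these had the opposite sign against A375+DMSO. Of those 135, none changed sign under another pseudocount or after scaling to a median ratio of 1, while the ratios of BRAF, BECN1 and AIF1, which were not past 1.5-fold, became -0.0037, -0.0017 and -0.0095 after scaling. ABCB1 fell under 1.5-fold with a pseudocount of 1 (0.54) and after scaling (0.52), and ALDH1A3 (0.58) and BAD (0.58) did after scaling. The log2 ratios to A375+DMSO of those higher than A375P were BST2 -1.91, ALDOC -1.67, B3GALT4 -1.08, BGN -0.90, AGMO -0.83, BCAM -0.69, ACAN -0.58, C1R -0.43, ABCB4 -0.37, ASS1 -0.35, ATP8 -0.29, ADGRB2 -0.28, B4GALNT1 -0.27, ACAD9 -0.22, BTN3A3 -0.22, ATP6 -0.19, ACACB -0.11, ACADVL -0.11, BMF -0.11, BAD -0.054 and ATG16L2 -0.041. Those of the genes lower than A375P were ALOXE3 1.53, BHLHE40 1.24, ARC 1.20, ABL2 1.03, ADORA2A-AS1 0.91, BDNF 0.78, AOC2 0.75, ADORA2A 0.62, ARTN 0.62, AGPAT5 0.60, ATP6V0A2 0.55, BTG2 0.45, ATP6V1D 0.36, AMMECR1 0.36, ACTA2 0.31, BCL2 0.28, ANXA5 0.25, ABCB9 0.22, ALG3 0.21, ALG2 0.21, BAK1 0.20, BBC3 0.14, ATP6V0E1 0.13, BAX 0.13, ATP6V1E1 0.12, ALKBH2 0.091, ATP6V0B 0.063, ANAPC16 0.050, AJUBA 0.042, AKT1S1 0.033, ATP6V1G1 0.0086 and APLN 0.00088.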
